A study of Mus musculus with 262 samples.

Results

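The genes described here are 8 transcripts of salt transport, chloride transport and protein phosphatase control in the mouse kidney: Umod, Slc12a1, Ppp1r1a, Ppp1r1b, Bsnd, Clcn5, Slc12a2 and Cftr. They were chosen by symbol, as a named list, from the 47069 genes of the deposited expression tables, and all 8 were found in every table. The series holds 262 RNA-seq samples of mouse kidney; the labels give an age of 2 months for all of them and a sex, male, for the tubules alone. The strain C57BL/6 gave 235 single cells, captured on a microfluidic chip after sorting on DBA (a lectin), c-Kit, both of these or PNA (another lectin). The authors' names for them are 87 type A intercalated, 23 type B intercalated, 74 principal, 19 proximal tubule and 32 non-epithelial cells. From the same strain came 2 bulk samples sorted on c-Kit and 2 sorted on DBA, and single tubules dissected by hand, 8 of the cortical thick ascending limb (cTAL) and 11 of the cortical collecting duct (CCD). From a strain named Atp6v1b1GFP, in which the sort was on GFP fluorescence, came 2 GFP-positive and 2 GFP-negative bulk samples. The labels name no treatment and do not say which samples came from separate animals, so every p-value measures only the spread between these samples, which may be technical.

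The thick ascending limb reabsorbs sodium chloride without water and so dilutes the urine. Salt enters its cells through the apical cotransporter NKCC2, encoded by Slc12a1, and chloride leaves across the basolateral membrane through ClC-K channels, which need the subunit barttin, encoded by Bsnd. Umod encodes uromodulin, the main protein of normal urine, which these cells secrete. Ppp1r1a and Ppp1r1b encode inhibitor-1 and DARPP-32, small proteins that inhibit protein phosphatase 1 once protein kinase A has phosphorylated them. Clcn5 encodes ClC-5, a chloride and proton exchanger of endosomes that is needed for protein uptake in the proximal tubule and is also present in intercalated cells. Slc12a2 encodes the basolateral cotransporter NKCC1, and Cftr encodes a chloride channel opened through cyclic AMP.

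The RefSeq promoter table used here (build GRCm38.p6) held 4 of the 8 members. Umod and Slc12a1 are shown because they define the thick ascending limb and had the most similar pattern to each other over the groups of these data. Each stretch is the part of the window of 250 bases before the RefSeq start that also lies before the first base of the gene in GENCODE M21. The Umod stretch lies at chr7:119479283-119479512 on the minus strand and the Slc12a1 stretch at chr2:125152350-125152504 on the plus strand, and both are written 5′ to 3′ with the motifs GTTAAT and CCAAT in capitals.
Umod: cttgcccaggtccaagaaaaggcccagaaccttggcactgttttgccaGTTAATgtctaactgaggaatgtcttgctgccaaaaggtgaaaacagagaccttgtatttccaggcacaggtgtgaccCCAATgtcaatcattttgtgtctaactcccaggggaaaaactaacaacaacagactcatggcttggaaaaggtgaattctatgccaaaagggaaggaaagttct
Slc12a1: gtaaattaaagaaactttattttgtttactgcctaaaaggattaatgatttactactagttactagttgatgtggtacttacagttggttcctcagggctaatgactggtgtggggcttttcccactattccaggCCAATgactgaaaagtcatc

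GTTAAT is part of the site of hepatocyte nuclear factor 1, a regulator of kidney epithelial genes, and CCAAT is the site of NF-Y. Both strands of the full window of 250 bases were searched. Umod held GTTAAT once and CCAAT once, starting 202 and 124 bases before its RefSeq start. Slc12a1 held CCAAT at 115 and 75 bases before its start, the second beyond the printed stretch, and no GTTAAT. Of 32851 promoter windows of this length, 6.43% held GTTAAT and 33.8% held CCAAT, so the letters are common. The TATA box letters TATAAA, found in 12.4% of windows, the nuclear receptor letters AGGTCA, found in 14.0%, and the full hepatocyte nuclear factor 1 palindrome, found in 3 windows, had no match in either gene.

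All 4 transcripts named for the limb itself separated cTAL from CCD tubules without overlap. The share of all genes that do so was not computed. In units of TPM (a level scaled for gene length and to the same total in every sample), Umod ran from 29949 to 48119 over the 8 cTALs with a median of 41806, and from 29.0 to 629 over the 11 CCDs with a median of 185. The mean was 40070 ± 6723 TPM (SD, n = 8) in cTAL and 205 ± 177 (SD, n = 11) in CCD, a 196-fold ratio. Umod was the most abundant transcript of the cTAL, with 4.01% of all TPM on average and between 2.99% and 4.81% in single tubules. Its log2 difference, cTAL minus CCD on the scale of log2(TPM + 1), was 8.09 (SE 0.43, adjusted p = 7.95e-13 in limma).

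**Figure D1:**
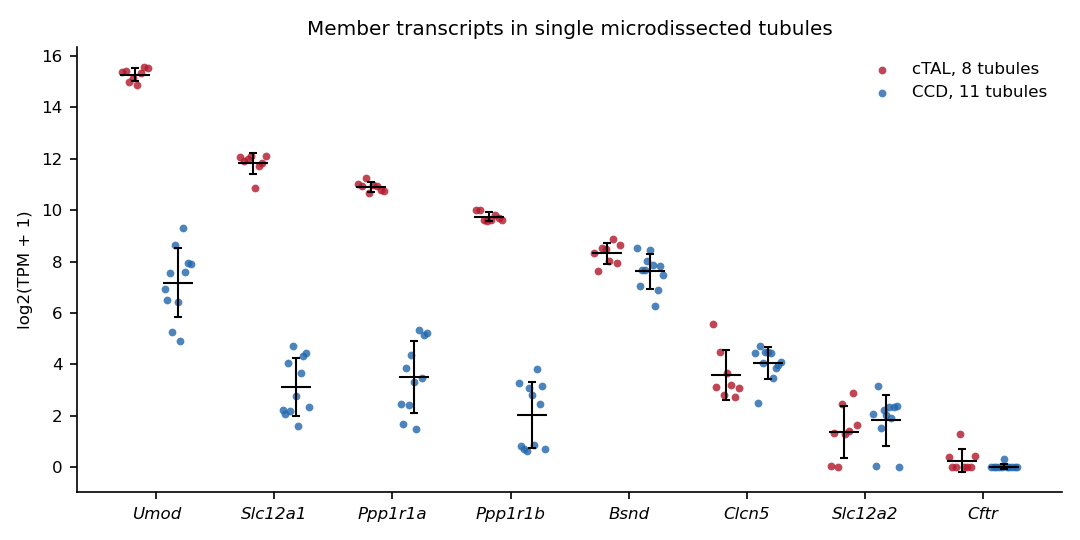
Level of each member, as log2(TPM + 1), in single tubules; each point is 1 tubule (red, 8 cTAL; blue, 11 CCD), and black bars give the mean and SD on this scale. Umod, Slc12a1, Ppp1r1a and Ppp1r1b lie far apart between the segments, whereas Bsnd, Clcn5, Slc12a2 and Cftr overlap.

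Slc12a1 showed the largest log2 difference of the members. It ranged from 1878 to 4430 TPM in cTAL (median 3974) and from 2.02 to 25.5 TPM in CCD (median 5.78). The mean was 3746 ± 843 against 10.5 ± 8.46 TPM, and the log2 difference was 8.70 (SE 0.39, adjusted p = 3.70e-14 in limma). Every cTAL lay above every CCD, and even the lowest cTAL value was far above the highest CCD value.

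Both phosphatase inhibitors followed the same pattern. Ppp1r1a, which encodes inhibitor-1, ranged from 1604 to 2402 TPM in cTAL (median 1956) and from 1.81 to 39.3 TPM in CCD (median 10.1), a log2 difference of 7.38 (SE 0.46, adjusted p = 1.27e-11 in limma). Ppp1r1b, which encodes DARPP-32, ranged from 753 to 1038 TPM in cTAL (median 807) and from 0.57 to 13.2 TPM in CCD (median 4.56), a difference of 7.70 (SE 0.43, adjusted p = 2.71e-12 in limma). By mean level they ranked 68 and 146 among cTAL transcripts, behind Slc12a1 at 31. In the cTAL they were also the steadiest members: the SD was 13.0% of the mean for Ppp1r1a and 12.9% for Ppp1r1b, against 16.8% for Umod and 22.5% for Slc12a1. The ratio of Ppp1r1a to Ppp1r1b stayed between 1.91 and 3.03 in the 8 cTALs, and the ratio of Umod to Slc12a1 between 7.83 and 16.0.

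Bsnd, the barttin subunit, was high in both segments. It ranged from 199 to 474 TPM in cTAL (median 342) and from 77.1 to 373 TPM in CCD (median 205), with means of 328 ± 89.4 and 214 ± 90.0. The groups overlapped, and the log2 difference of 0.70 (SE 0.25) did not pass the threshold (adjusted p = 0.0556 in limma). This call depended on the settings: it passed without CCD tubule m1_CCD1 (0.79, adjusted p = 0.0258), without m4_CCD2 (0.78, adjusted p = 0.0326) and without cTAL tubule m2_cTAL1 (0.79, adjusted p = 0.0343), and the adjusted p ranged from 0.0102 to 0.151 over all settings in limma. Among all transcripts Bsnd ranked 425 in cTAL and 777 in CCD.

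The other members were low in both segments. Clcn5 ranged from 5.67 to 46.2 TPM in cTAL (median 7.98) and from 4.72 to 25.2 TPM in CCD (median 16.0), and its log2 difference of -0.47 (SE 0.39) was not called (adjusted p = 0.474 in limma), although weighting tubules by their quality gave -1.07 (adjusted p = 0.00233). Slc12a2, the NKCC1 gene, stood at 2.22 ± 2.19 TPM in cTAL and 3.20 ± 2.20 in CCD, with overlapping ranges (difference -0.44, SE 0.47, adjusted p = 0.587 in limma). Cftr reached 1 TPM in 1 of 8 cTALs and 0 of 11 CCDs and was below the minimum mean of 1 TPM for testing.

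Of the 7 members tested between segments, 4 were called higher in cTAL and none lower, where 18.7% of all 13520 genes tested were called, 5.5% higher and 13.2% lower. The median log2 difference of the 7 was 7.38, against -0.31 over all genes tested. Quantile normalization moved the median over all genes to 0.03 and the split to 1244 higher among 2465 called, from 744 higher among 2526. The calls of Umod, Slc12a1, Ppp1r1a and Ppp1r1b kept their direction and passed the threshold under all 29 alternatives run.

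The CCDs carried small amounts of the same 4 transcripts. The CCD mean was 0.511% of the cTAL mean for Umod, 0.280% for Slc12a1, 0.823% for Ppp1r1a and 0.542% for Ppp1r1b. Of 6 other thick ascending limb transcripts, Egf (the epidermal growth factor precursor, 0.334%) and Tmem207 (0.482%) lay within the range of these shares. Higher shares were found for Ptger3 (3.98%) and the tight junction genes Cldn16 (1.34%), Cldn10 (2.01%) and Cldn19 (2.44%). CCD tubule m6_CCD1 had the highest Umod (629 TPM), Ppp1r1a (39.3 TPM) and Ppp1r1b (13.2 TPM) of the 11 and the lowest Bsnd (77.1 TPM). Its Slc12a1 (11.7 TPM) and Egf (36.3 TPM) were not the highest, which were at 25.5 and 67.2 TPM in m4_CCD1. It also had the lowest level of the type A intercalated cell anion exchanger Slc4a1 (122 TPM, against a median of 339 over the CCDs). In the opposite direction, the cTAL mean of the principal cell water channel Aqp2 was 0.125% of its CCD mean. A part of carried-over tissue or RNA in these low levels was not tested.

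The labelled segments matched their defining markers. All 5 other thick ascending limb markers were called higher in cTAL, with summed levels of 7806 to 13877 TPM against 33.4 to 166 in CCD. All 5 principal cell markers and all 3 markers shared by intercalated cells were called lower, with intercalated sums of 106 to 269 TPM in cTAL and 1699 to 2532 in CCD. Of these 3, the transcription factor gene Foxi1 had a mean of 0.435 TPM in cTAL and 654 in CCD. The cTAL sums thus came from the other markers.

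Among 20 other genes of thick ascending limb transport and identity, 13 were called higher in cTAL, 1 lower and 6 in neither direction, with a median log2 difference of 2.72. Egf (8.46), Tmem207 (6.81) and Cldn16 (6.37) had the largest differences. The potassium channel gene Kcnj1, which the limb shares with principal cells, was not called (-0.04, SE 0.21, adjusted p = 0.928 in limma). The myelin and lymphocyte protein gene Mal was the only one called lower (-0.40), and lost the call without the variance trend, on means per column prefix and under quantile normalization (-0.22).

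Most relatives of the members were not called between segments. Those called were more often lower than higher in cTAL, as over all genes tested (13.2% lower, 5.5% higher). Of 8 tested catalytic subunits and inhibitors of protein phosphatase 1 other than the members, 3 were called lower in cTAL and none higher in limma (4 had an unadjusted p under 0.05), and 1 was lower under quantile normalization or without the variance trend. On means per column prefix and segment none was called (adjusted p = 0.115 for Ppp1r2). Ppp1r2, which encodes inhibitor-2, was lower by a log2 difference of -1.06 (SE 0.21) without overlap between groups. Of 5 tested SLC12 cotransporters other than the members, the potassium chloride cotransporter gene Slc12a4 was called higher (1.77, adjusted p = 0.0363 in limma), and 1 had an unadjusted p under 0.05. That call was lost without any 1 of 8 single tubules, 5 cTALs and 3 CCDs (adjusted p between 0.0510 and 0.0718), and with another filter, a lower pseudocount, sample weights or means per column prefix. None of 6 tested ClC family genes was called in limma, 1 had an unadjusted p under 0.05 (Clcn3, adjusted p = 0.0523), and this gene was called lower under 8 alternatives, among them a filter at 10 TPM (adjusted p = 0.0424). Of 8 tested genes of receptor-mediated endocytosis, the pathway that ClC-5 serves, 3 were called lower, led by the adaptor gene Dab2 (-4.86, SE 0.44), and Clcn5 itself was not. On means per column prefix and segment 1 of these genes was lower. Of 9 other chloride channel genes tested, 1 was called higher, Lrrc8d (1.91), and 3 lower, among them Ano10 (-1.95). The lower calls were lost on means per column prefix and segment (adjusted p = 0.122 for Ano10 in limma). Those other than Ano10 were also lost in most fits without a single tubule. The same held without the filter, with a higher pseudocount and under quantile normalization.

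Of the members, Bsnd and Clcn5 were called between the fractions sorted on c-Kit and on DBA, and Umod, Slc12a1, Ppp1r1a and Ppp1r1b were not. Bsnd stood at 457 and 437 TPM in the 2 c-Kit samples and at 23.8 and 28.8 TPM in the 2 DBA samples, a log2 difference of 4.04 (SE 0.10, adjusted p = 2.18e-06 in limma). Clcn5 stood at 64.8 and 60.9 TPM against 15.1 and 18.0 TPM, a difference of 1.87 (SE 0.11, adjusted p = 3.77e-05 in limma). Both c-Kit samples were above both DBA samples for each gene, as they also were for Slc12a2, which was not called. The share of all genes that separate in this way was not computed. In the c-Kit fraction Bsnd ranked 334 among all transcripts, and in the DBA fraction it ranked 6050.

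Umod, in contrast, varied more within the c-Kit fraction than between fractions. Its values were 782 and 397 TPM in c-Kit and 493 and 602 TPM in DBA (difference 0.03, SE 0.29, adjusted p = 0.939 in limma). Slc12a1 stood at 129 and 98.9 against 99.9 and 107 TPM (0.13, SE 0.13, adjusted p = 0.442 in limma). Ppp1r1a stood at 49.1 and 37.9 against 40.0 and 41.1 TPM (0.09, SE 0.13), and Ppp1r1b at 20.1 and 13.0 against 15.3 and 18.2 TPM (-0.04, SE 0.20), neither called. For all 4 the first c-Kit sample was the highest of the 4 samples and the second the lowest. Without that second sample Slc12a1 was called (0.32, adjusted p = 0.0440 in limma).

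NKCC1 and Cftr remained low in these fractions. Slc12a2 stood at 13.7 and 11.6 TPM in c-Kit and at 11.0 and 10.9 TPM in DBA (0.18, SE 0.13, adjusted p = 0.300 in limma), and was called under quantile normalization (0.41, adjusted p = 0.0433). Cftr was at 0.14 and 0.40 TPM in c-Kit and at 1.00 and 1.03 TPM in DBA, too low for the test.

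Of the 7 members tested, 2 were called higher in c-Kit and none lower, where 44.3% of all 14341 genes tested were called, 16.1% higher and 28.1% lower. Quantile normalization moved that split to 3055 higher of 6127 called, from 2315 higher of 6348. The members' median difference was 0.13, against -0.11 over all genes tested. Markers of other cell types moved with the fractions. The 3 shared intercalated markers summed to 3285 to 3780 TPM in c-Kit and 281 to 290 in DBA, and the 5 principal cell markers to 2436 to 3293 against 21608 to 24103. Other thick ascending limb markers summed to 311 to 482 TPM in c-Kit and 326 to 354 in DBA. In such bulk samples, fewer cells of a type and less RNA per cell cannot be told apart.

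Other genes named for the thick ascending limb went in both directions between these fractions: of 18 tested, 6 were called higher in c-Kit and 8 lower. The prostaglandin E2 receptor gene Ptger3 (2.83), Tmem72 (2.67) and the transcription factor gene Foxq1 (2.59) were higher, and Kcnj1 (-2.27) and Kcnj16 (-1.73), both potassium channel genes, were lower. Under quantile normalization the split was 7 higher and 6 lower, and without DBA replicate 1 or 2 it was 5 higher with 5 or 4 lower. Of 9 endocytosis genes 7 were called lower in c-Kit, among them Amn (-1.36), while Clcn5 and Dab2 (0.57) were higher. Without DBA replicate 1 or 2, 3 or 4 of them were lower. Markers of the proximal tubule, where these receptors are abundant, summed to 1424 to 1599 TPM in c-Kit and 3148 to 3212 in DBA, and immune markers to 3867 to 4067 against 12146 to 12648.5. Their part in these calls was not tested. Of 12 other chloride channel genes tested, 2 were higher and 6 lower, with Lrrc8d (0.74), a subunit of volume-regulated channels, on the higher side and Clic4 (-0.96) on the lower. Without DBA replicate 1 or 2, 2 or 3 of the 12 were lower.

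**Figure D2:**
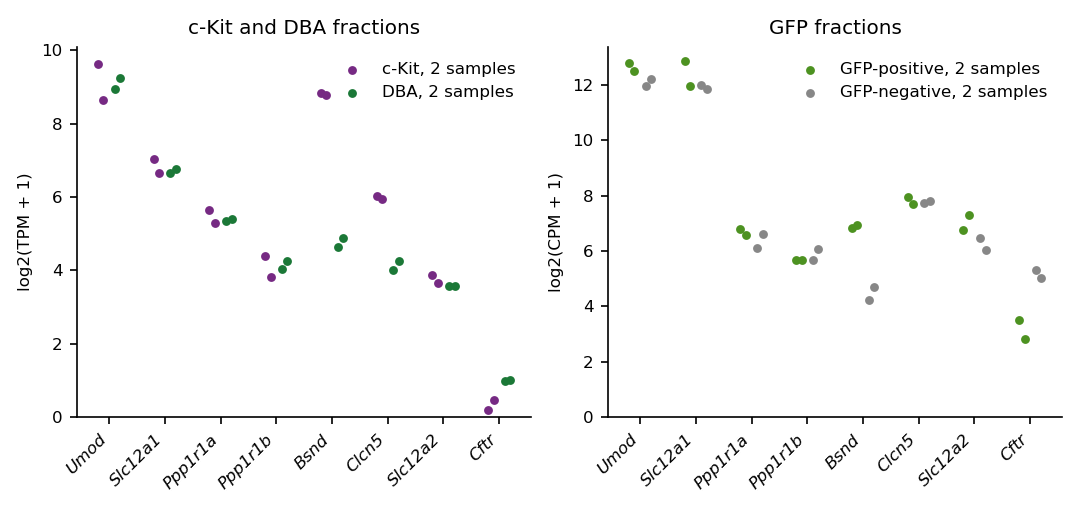
Level of each member in every bulk sample, as log2(TPM + 1) for the c-Kit and DBA fractions (left) and log2(CPM + 1) for the GFP fractions (right); each point is 1 sample. Bsnd and Clcn5 were called higher in c-Kit than in DBA. Between the GFP fractions Bsnd and Slc12a2 were called higher with GFP and Cftr lower. Slc12a2 and Cftr on the left, and Umod and Ppp1r1b on the right, also do not overlap, without a call.

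The GFP fractions, counted in reads (about 35530900 to 40815100 in genes per sample), showed the same order for Bsnd and a lower level of Cftr. In CPM (counts scaled to library size and not to gene length), Bsnd stood at 113 and 123 in the GFP-positive and at 17.9 and 24.9 in the GFP-negative samples. Its log2 difference was 2.46 (SE 0.21, adjusted p = 8.99e-05 in edgeR's quasi-likelihood test). Cftr stood at 10.4 and 6.08 CPM in the GFP-positive and at 38.5 and 31.2 CPM in the GFP-negative samples, so it was lower (-2.08, SE 0.31, adjusted p = 0.00119 in edgeR). On the authors' RPKM values Cftr kept the direction and lost the call (-1.76, adjusted p = 0.147 in limma).

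Slc12a2 was the third member called. It stood at 108 and 158 CPM in the GFP-positive and at 88.7 and 64.4 CPM in the GFP-negative samples (0.79, SE 0.24, adjusted p = 0.0318 in edgeR). The call was lost without GFP-negative replicate 2 (0.59, adjusted p = 0.157), without GFP-positive replicate 2 (0.50, adjusted p = 0.159) and on RPKM values (0.59, adjusted p = 0.328 in limma). The groups did not overlap, but the gap between them was smaller than the gap within the GFP-positive fraction.

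Thick ascending limb members were abundant on both sides of this sort. Umod stood at 7135 and 5732 CPM in the GFP-positive and at 4011 and 4666 CPM in the GFP-negative samples (0.57, SE 0.24, adjusted p = 0.102 in edgeR). DESeq2 called it at 0.56 (adjusted p = 0.0231). On the authors' RPKM values its groups overlapped, at 2262 and 1263 in the GFP-positive and 1346 and 1617 in the GFP-negative samples. Slc12a1 stood at 7427 and 3971 against 4029 and 3690 CPM (0.56, SE 0.31, adjusted p = 0.199 in edgeR), and was called without GFP-positive replicate 2 (0.95, adjusted p = 0.0194). Ppp1r1a (110 and 95.1 against 67.2 and 97.5 CPM) and Ppp1r1b (50.3 and 50.2 against 50.3 and 66.0 CPM) were not called. Clcn5 stood at 246 and 205 CPM in the GFP-positive and at 214 and 222 CPM in the GFP-negative samples, with a difference of 0.05 (SE 0.17, adjusted p = 0.867 in edgeR).

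Of the 8 members tested, 2 were called higher and 1 lower with GFP, where 32.6% of all 15671 genes tested were called, 15.2% higher and 17.3% lower. Here too other cell types moved with the sort. Markers of the distal convoluted and connecting tubule summed to 2575 to 3630 CPM in the GFP-positive and 155 to 203 in the GFP-negative samples, and the 3 type A intercalated markers to 2908 to 7368 against 44.4 to 74.3. Proximal tubule markers summed to 1563 to 2540 CPM against 13149 to 13189, and other thick ascending limb markers to 1971 to 3422 against 1321 to 1429. Their part in the values of Bsnd, Clcn5, Cftr and Umod was not tested.

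Of 19 other thick ascending limb genes tested between the GFP fractions, 11 were called higher and 2 lower, and on RPKM values 7 higher and 1 lower. The kinase gene Wnk1 (1.94), Foxq1 (2.08) and Mal (1.91) were higher, and the tight junction gene Cldn10 (-1.26) was lower. The thiazide-sensitive cotransporter gene Slc12a3, a relative of Slc12a1 and Slc12a2, was higher by 3.12 (SE 0.30). Of 9 endocytosis genes 5 were lower in the GFP-positive fraction, led by the receptors Cubn (-3.02) and Lrp2 (-2.73) and their partner Amn (-2.91), and 2 were higher, Gipc1 (1.08) and Ocrl (0.69). On RPKM values 3 were lower and none higher, and 1 was higher with any 1 sample left out. Of 16 other chloride channel genes 5 were lower, led by Clic5 (-2.38), and 2 were higher, Lrrc8e (2.67) and Clic3 (2.60), which were under 10 CPM and are named after their values were seen. On RPKM values 2 were lower and none higher. Without GFP-negative replicate 1, 3 were lower, and leaving out replicate 2 of either fraction left 1 higher.

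**Figure D3:**
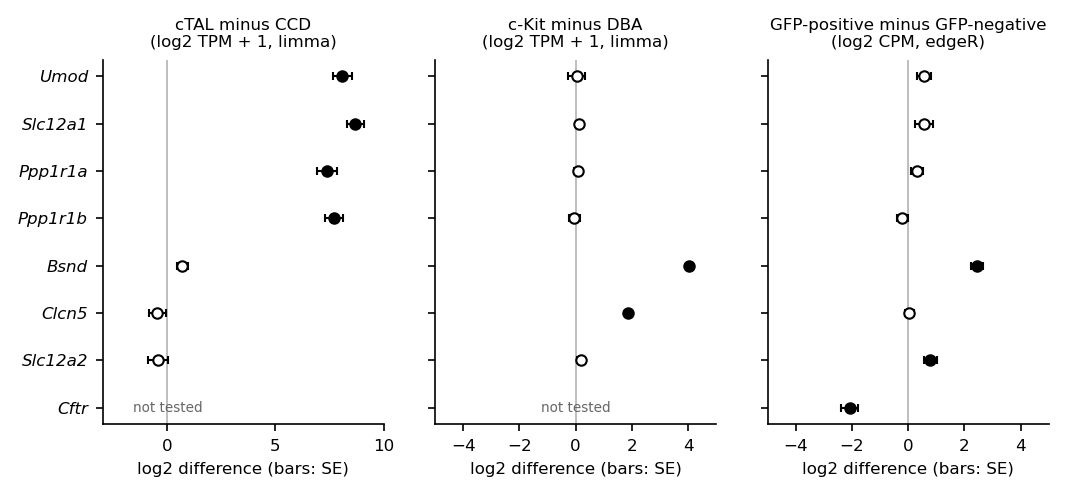
Log2 difference of each member in the 3 replicated comparisons; filled points passed an adjusted p of 0.05, open points did not, and bars give the standard error. Bsnd is at 4.04 between c-Kit and DBA and at 2.46 between the GFP fractions, and at 0.70 and not called between the tubule segments.

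Before the single cells are compared, 2 of the 87 columns named type A went against their label. A-IC_78 held 15161 TPM of Umod, 1518 of Slc12a1, 1073 of Ppp1r1a and 525.7 of Ppp1r1b, with 3539 of Egf and 1140 of Kcnj1. A-IC_63 held 5534 TPM of Umod, 1068 of Slc12a1 and 185 of Ppp1r1a, with 5039 of Egf, but 0.13 of Ppp1r1b and 0.82 of Kcnj1. Cldn10 was at 1199 TPM in A-IC_78 and 216 in A-IC_63, and Cldn16 was at 0 in both. Ptger3 was at 242 and 0.04 TPM, and the principal cell gene Aqp2 at 636 and 2.49 TPM, in the same order. Both columns held 0.18 TPM of Slc4a1 and under 1 TPM of the intercalated cell factor gene Foxi1. Of the 87 type A cells, 10 in all had Slc4a1 below 1 TPM. These columns were singled out after their values were seen, and values for type A are given with and without them. No animal is named for any cell, so each type was 1 sample, nothing was tested between types, and intervals are exact Clopper-Pearson 95% intervals for counting error.

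Bsnd was found mainly in intercalated cells. At a threshold of 1 TPM, 56 of 87 type A (64.4%, interval 53.4% to 74.4%) and 15 of 23 type B cells (65.2%, 42.7% to 83.6%) had the transcript. The share was 7 of 32 in non-epithelial (21.9%, 9.28% to 40.0%), 4 of 19 in proximal tubule (21.1%, 6.05% to 45.6%) and 8 of 74 in principal cells (10.8%, 4.78% to 20.2%). Mean levels followed in the order type A (168 TPM), type B (93.2), non-epithelial (45.5), principal (23.9) and proximal tubule cells (10.1). By the median, type B (32.5 TPM) lay above type A (27.2), and the other types were below 1 TPM. Without A-IC_78 and A-IC_63 the type A values were 172 TPM, with 55 of 85 cells. Without the highest cell of each type the mean was 25.3 TPM in non-epithelial, 13.4 in principal and 0.571 in proximal tubule cells.

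Outside the intercalated types, the cells with Bsnd differed in whether they had intercalated transcripts. All 7 non-epithelial cells with Bsnd also had Foxi1, which was detected in 9 of the 32. Of the 8 principal cells with Bsnd 5 had Foxi1, which was detected in 10 of the 74. None of the 4 proximal tubule cells with Bsnd had Foxi1, and 1 had Slc4a1. Among type A cells 41 of the 56 with Bsnd had Foxi1. Whether these wells held more than 1 cell was not tested.

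Clcn5, like Bsnd, was found most often in intercalated cells. The share in proximal tubule cells came next, and its interval overlapped those of all other types, type A and type B included. The transcript was present in 61 of 87 type A (70.1%, interval 59.4% to 79.5%), 15 of 23 type B cells (65.2%, 42.7% to 83.6%), 11 of 19 proximal tubule cells (57.9%, 33.5% to 79.7%), 12 of 32 non-epithelial cells (37.5%, 21.1% to 56.3%) and 21 of 74 principal cells (28.4%, 18.5% to 40.1%). The mean was 103 TPM in type A, 34.9 in type B, 23.5 in proximal tubule, 16.0 in non-epithelial and 14.2 in principal cells. Without the highest cell of each type these means were 96.4, 22.6, 15.5, 12.2 and 10.1 TPM. All 11 proximal tubule cells with Clcn5 also had Lrp2, the megalin gene, which was detected in 18 of the 19. Both Clcn5 and Bsnd were detected in 43 of the 87 type A cells, and neither in 13.

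**Figure D4:**
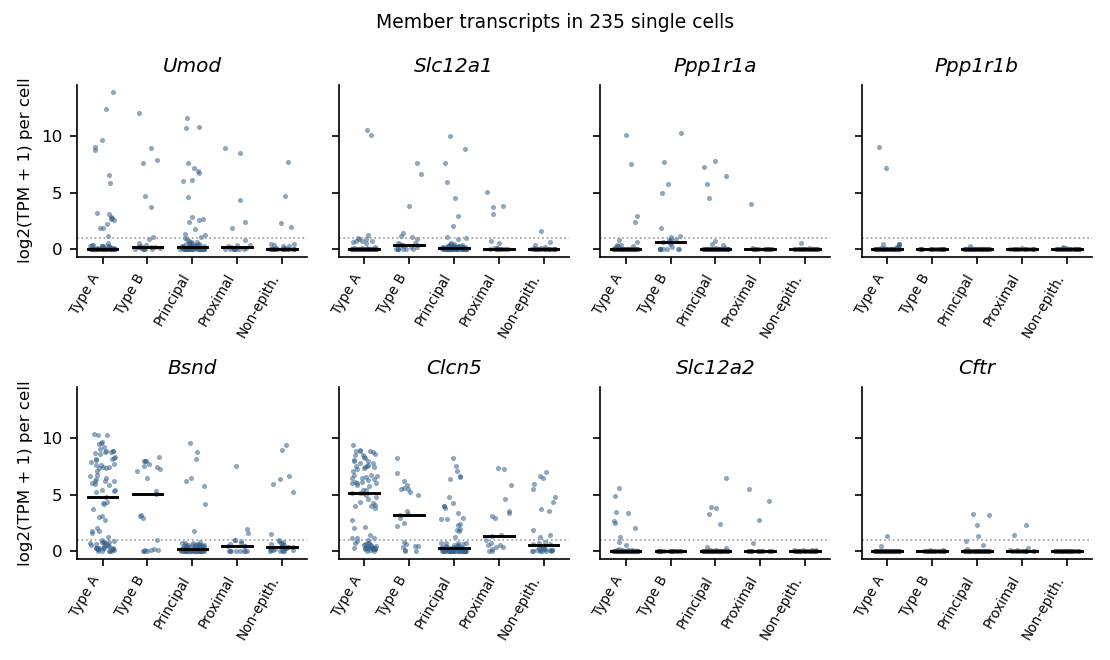
Level of each member, as log2(TPM + 1), in 235 single cells grouped by the authors' cell types; each point is 1 cell, black lines are medians, and the dotted line marks 1 TPM. Bsnd and Clcn5 have medians well above the line in the type A and type B cells, and the medians of the thick ascending limb members lie below it in every type.

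The thick ascending limb members were sporadic, with high levels in few cells of each type. Umod was found in 17 of 87 type A (19.5%, interval 11.8% to 29.4%), 7 of 23 type B (30.4%, 13.2% to 52.9%), 18 of 74 principal (24.3%, 15.1% to 35.7%), 5 of 19 proximal tubule (26.3%, 9.15% to 51.2%) and 4 of 32 non-epithelial cells (12.5%, 3.51% to 29.0%). All 5 intervals overlapped, and no type had a median above 0.15 TPM. Where Umod was detected, its median was lowest for type A (7.31 TPM) and highest for type B (196.53 TPM). Between them lay 14.15 TPM (non-epithelial), 19.67 (proximal tubule) and 44.115 (principal). Type A columns A-IC_64, A-IC_65, A-IC_66, A-IC_77, A-IC_79, A-IC_80 and A-IC_83 held 1.24 to 8.25 TPM of Umod and 0.48 to 0.92 of Slc12a1. The threshold of 1 TPM counted them as cells with Umod, and the source of such low values was not tested. Non-epithelial cells are not known to make uromodulin, and the source of the transcript in their wells was not tested. The median number of genes at 1 TPM or more was 2862 in those cells and between 2704 and 3253 in the other types. The mean of 261 TPM in type A cells was 87.6 without its highest cell and 23.5 without A-IC_78 and A-IC_63. Without the highest cell of each type the mean fell from 228 to 43.3 TPM in type B and from 99.7 to 58.1 in principal cells. It fell from 47.1 to 21.7 TPM in proximal tubule and from 7.62 to 1.06 in non-epithelial cells. Type B then lay below principal cells, and type A stayed highest. With only A-IC_78 and A-IC_63 left out, type A lay below type B, principal and proximal tubule cells.

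Slc12a1 reached 1 TPM in 9 of 74 principal cells (12.2%, interval 5.71% to 21.8%), 6 of 23 type B cells (26.1%, 10.2% to 48.4%), 4 of 19 proximal tubule cells, 3 of 87 type A cells (3.45%, 0.717% to 9.75%) and 1 of 32 non-epithelial cells. The type A mean of 29.8 TPM fell to 0.0835 without A-IC_78 and A-IC_63, and the highest of the remaining 85 cells held 1.41 TPM. Ppp1r1a had its highest mean in type B cells (68.0 TPM, 7 of 23 cells), of which 1 cell held 1258 TPM, and the mean without that cell was 13.9. Ppp1r1b reached 1 TPM in 2 of all 235 cells, both named type A, at 525.7 TPM in A-IC_78 and at 146 TPM in the other.

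High levels of Umod and Slc12a1 met in few cells. Umod was at 100 TPM or more in 19 of 235 cells (5 type A, 4 type B, 7 principal, 2 proximal tubule and 1 non-epithelial) and Slc12a1 in 7. Of the 51 cells with Umod detected, 17 also had Slc12a1 and 11 also had Ppp1r1a. All 4 limb transcripts were detected together in 1 cell, A-IC_78, and 172 cells had none of them. Cells with much Umod often carried their own type's marker: B-IC_1 held 4297 TPM of Umod and 100 of Slc12a1 with 2325 TPM of the type B anion exchanger Slc26a4, but 1.65 of Egf. Principal_cell_37 held 3136 TPM of Umod and 463 of Slc12a1 with 1012 of Aqp2 and 1736 of Egf. Free RNA, more than 1 cell in a chamber and expression in the named type cannot be told apart from these values.

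**Figure D5:**
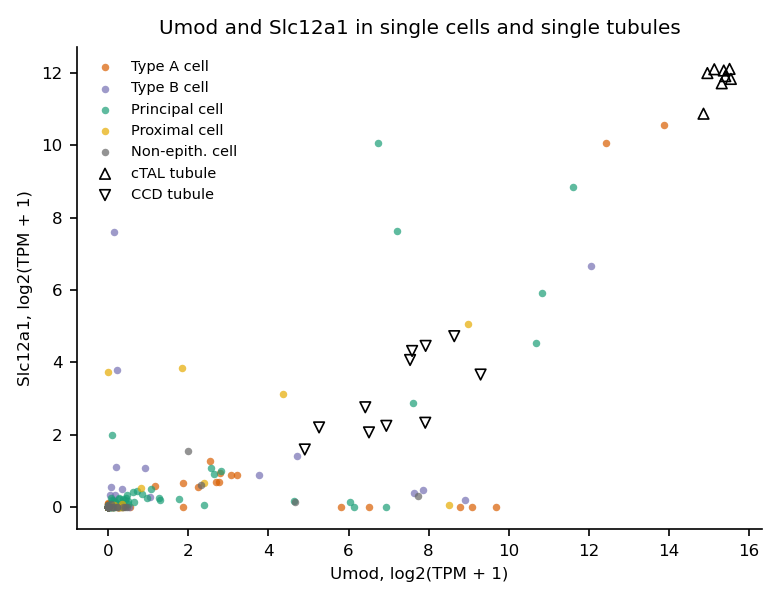
Slc12a1 against Umod, both as log2(TPM + 1), in each single cell (filled points, coloured by type) and each tubule (open triangles). The 8 cTALs form a group at the upper right, the cells nearest to them are the type A columns A-IC_78 and A-IC_63, and several cells with high Umod have no Slc12a1.

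Slc12a2 and Cftr were rarely detected in single cells. Slc12a2 was found in 8 of 87 type A (9.20%, interval 4.05% to 17.3%), 5 of 74 principal (6.76%, 2.23% to 15.1%) and 3 of 19 proximal tubule cells (15.8%, 3.38% to 39.6%), in 0 of 23 type B cells, which allows a share of up to 14.8%, and in 0 of 32 non-epithelial cells, which allows up to 10.9%. Cftr was found in 4 of 74 principal cells (5.41%, 1.49% to 13.3%), 2 of 19 proximal tubule cells and 1 of 87 type A cells, and its highest value was 8.70 TPM, in a principal cell. Neither gene marked a cell type at this detection.

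For all 8 members the interquartile ranges of neighbouring types in the order of mean levels overlapped. For all but Bsnd and Clcn5 the median was under 1 TPM in every type, so this overlap says little about them. By mean level 5 of the 8 were highest in type A cells (Umod, Slc12a1, Ppp1r1b, Bsnd and Clcn5), and without A-IC_78 and A-IC_63 this held for 3 (Ppp1r1b, on 1 cell, Bsnd and Clcn5). The GFP, c-Kit and single-cell data were normalized separately, and no level was tested across them.

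The genes whose pattern was most like each member were found by Pearson's r of log2(mean TPM + 1) over 9 groups (5 single-cell types, c-Kit, DBA, CCD and cTAL), given as a description because several groups come from 1 table. Umod was most like Slc12a1 (0.98), Wnk4 (0.97) and Ppp1r1a (0.97), and Slc12a1 was most like Umod, Sfrp1 (0.97) and Mturn (0.97). Ppp1r1b was most like Plekhg1 (0.99). Bsnd was most like Got1 (0.93), Slc2a4 (0.93) and Pdhb (0.92), and Clcn5 was most like Sytl5 (0.92), Fcer1a (0.92) and Mcpt8 (0.92). Slc12a2 was most like Galns (0.98). Over the 19 tubules, which fall into 2 separate segments, Umod, Slc12a1 and Ppp1r1a each had Egf among their 3 nearest genes (0.98 to 0.99), and Bsnd had Mfsd7c (0.84), Mthfd1 (0.82) and Cpt1a (0.81).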

How the data were processed

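The values analysed were tables deposited by the authors. TPM values, scaled by the authors to a fixed total per sample, covered tubules, single cells and the sorts on c-Kit or DBA; STAR 2.5.1b, RSEM 1.2.31 and genome GRCm38.p5 are named in the submitters' processing notes, and the column sums show that the tubule table is in TPM. For the GFP samples the authors deposited raw read counts from HTSeq-count and RPKM values, both on RefSeq genes of mm10 per the file names; no source used here states the aligner or strand mode. Without strand, reads of Umod, Slc12a1, Ppp1r1b and Cftr cannot be told apart from those of antisense genes that overlap them in GENCODE M21. Reads outside genes (66.7% to 72.8% of reads listed) stayed out of the tests. TPM keeps no depth, so no read-based limit can be given there. The number of per-sample columns not used was 0.

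TPM was compared with limma 3.58.1 in R 4.3.3 on log2(TPM + 1), which understates changes of low genes, with a variance trend, keeping genes whose mean reached 1 TPM. Counts were compared with edgeR 4.0.16 (TMM, filterByExpr, quasi-likelihood test). P-values were adjusted over all genes tested by Benjamini-Hochberg and called under 0.05. Fits held only the groups compared, without covariates. Python 3.11.15 and scipy 1.17.1 gave shares of cells with 1 TPM or more. Cell types are the authors'; all 235 cells were kept and no doublet caller was run, since the values are not molecule counts. No identical columns were found, and the scripts were tested on simulated data. Alternatives were other pseudocounts, filters, normalizations, tools (DESeq2 1.42.0), weights, blocks and left-out samples.

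The members and lists were chosen with earlier results of these data known. From each list the text draws on up to 3 called genes per direction with the largest differences and a mean of at least 10 (TPM or CPM) in each comparison, and names Kcnj1 and Clcn3 between the tubules beside these, chosen after their values were seen. Likeness was searched among genes with a group mean of at least 10 TPM. The ClC-K subunits were not analysed here.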

Additional observations from a re-analysis of the deposited data

Results flagged for a closer look

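Among the 8 members in the 8 cTAL tubules, 3 values stood apart from the other tubules by Dixon's criterion for outlying values. Chance meets it in about 1 in 20 groups if values are normally distributed. That rate does not hold for TPM values near 0, such as those of Cftr. Slc12a1 was lowest in m6_cTAL1 at 1878 TPM, where the next value was 3363 TPM, and the same tubule had the lowest Umod. Clcn5 was highest in m1_cTAL1 at 46.2 TPM, where the next value was 21.2 TPM. Cftr was highest in m4_cTAL1 at 1.44 TPM, where the next was 0.35 TPM.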

How the results depend on the processing

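The number of genes called between tubule segments, 2526, was 4401 with sample weights and 1239 on means per column prefix and segment with a replicate block. Leaving out each tubule gave 2239 to 3078. Between c-Kit and DBA it was 6348, and 3458 to 5701 with a sample left out (3600 without DBA replicate 1 and 3458 without DBA replicate 2; the lone sample is then assumed to vary like the others). Between the GFP fractions it was 5101, 1639 with limma on RPKM values, and 3616 to 4211 with a sample left out. By the median over cells 1 member, Clcn5, was highest in type A cells. By the mean there were 5, and 3 without A-IC_78 and A-IC_63, an alternative chosen after seeing the data.

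The tubule columns carry 7 prefixes (6 with both segments) that the labels do not explain, and columns of 1 prefix may share an animal. Deviations of same-prefix tubules from their segment means correlated at 0.02 to 0.16, so only a shared prefix is known. A block by the replicate numbers of the tubule labels was planned and not run, because the columns do not carry those numbers. With the prefix as a fixed replicate block, added after seeing the data, 2588 genes were called and Bsnd passed (0.79, adjusted p = 0.0191 in limma); as a random block 2763 were called and Bsnd passed (0.72, adjusted p = 0.0338), and on means per prefix and segment it did not (0.67, adjusted p = 0.151). With the replicate number as a block 6271 genes were called between c-Kit and DBA (correlation 0.03) and 5897 between the GFP fractions (correlation 0.14). Bsnd also passed between segments with a minimum mean of 10 TPM (0.70, adjusted p = 0.0445 in limma) and under quantile normalization (0.86, adjusted p = 0.0102). No member's called difference changed sign under the alternatives run.

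Depth is known only for the GFP samples. Detection in cells rests on a threshold of 1 TPM: above 0 TPM, Umod was found in 37.9% of type A and 71.6% of principal cells.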
